A study of Mus musculus with 82 samples.

Results

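The cytosolic ribosomal protein genes are the genes whose products build the ribosomes of the cytoplasm. They were taken by name from the mouse annotation (GENCODE vM21, mm10). Every protein-coding symbol that reads Rpl or Rps followed by a digit was kept, with Rpsa, Rplp0, Rplp1 and Rplp2, and pseudogenes, the S6 kinases and Rps19bp1 were left out. The rule gave 85 of 21829 protein-coding genes. Of these, 31 encode proteins of the small subunit, 43 of the large subunit and 3 of the stalk of the large subunit, and 8 are paralogs of another member (Rpl3l, Rpl7l1, Rpl10l, Rpl22l1, Rpl36al, Rpl39l, Rps27l and Rps27rt). The members lie on 19 chromosomes, 14 of them on chromosome 7, and are short, with a median span of 3.29 kb against 17.4 kb over all genes. Small nucleolar RNA genes sit inside 30 members, 58 in all.

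A ribosome needs 1 copy of nearly every ribosomal protein, so the genes are transcribed strongly and together in growing cells. Many of their mRNAs begin with a C followed by a tract of pyrimidines, the 5′ terminal oligopyrimidine (TOP) tract, through which their translation responds to nutrients and growth signals. A few paralogs are restricted to a tissue, such as Rpl10l and Rpl39l in the male germ line and Rpl3l in striated muscle. Processed pseudogenes of the family are numerous, and 294 are annotated under names with -ps.

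Chromatin was profiled by ChIP-seq or ChIPmentation in mouse stembryos, aggregates of embryonic stem cells that elongate like the posterior embryo after a pulse of the Wnt agonist Chiron between 48 h and 72 h. Each library came from pooled stembryos, and from 108 h on elongating ones were picked. The wild-type (wt) line was EmbryoMax 129/SVEV. The wt lists comprised 13 for H3K27ac, a mark of active promoters and enhancers (48 h to 168 h), 8 for PolII (RNA polymerase II, 72 h to 168 h), 5 for PolII Ser2-p, the elongating polymerase phosphorylated on serine 2 (72 h to 144 h), 8 for NIPBL, which loads cohesin (72 h to 168 h), 16 for RAD21, a subunit of cohesin (48 h to 168 h), and 2 for CTCF, at which cohesin halts (72 h and 168 h). The mutant lines lacked CTCF sites of the HoxD cluster on chromosome 2. For H3K27ac of Del(CBS1) and Del(CBS1-2), 2 libraries were used at each of 96 h and 120 h, with 2 for RAD21 of Del(CBS1) at 96 h, and 1 each for CTCF of Del(CBS1), Del(CBS1-2), Del(CBS1-5) and Del(CBS2) at 96 h and Del(CBS4) at 120 h. Del(CBS1), Del(CBS1-2), Del(CBS2) and Del(CBS4) were made by editing the wt line. The Del(CBS1-5) line was instead derived from blastocysts of mice on a hybrid background of BL6 and CBA. Its strain and origin cannot be told apart from its genotype. All lines were grown with the same Chiron pulse, and each mutant genotype stands for 1 line. Replicates were separate pools of stembryos, in part from different cultures. P-values of comparisons between groups with replicates measure the spread between such pools. Those of a linear trend over stages measure the spread of libraries around the line. For H3K27ac, PolII and NIPBL these trends had 1 library per stage.

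The files are lists of called peaks and do not hold the depth of sequencing. The paper gives the number of read pairs for most libraries, which was not used here. The wt lists of these 6 assays held between 3987 regions (PolII Ser2-p at 84 h) and 71196 (RAD21), and the wt lists of H3K27me3 and CDX2 given at the end went down to 181 regions. The lowest local background of a list ran from 1.12 to 7.21 fragments. The labels were checked on markers. Pou5f1 had an H3K27ac region at its promoter in 4 of 13 wt lists, from 48 h to 96 h, T had one in all 13 and Meox1 in 6, from 108 h to 144 h. Nanog and Zfp42 had one at 48 h and 72 h alone, and Dppa5a at 48 h alone. Tbx6 had one in 10 lists between 84 h and 168 h, though not at 144 h, and Cdx2 in 10 between 72 h and 168 h. Some markers did not follow the stages in this way. Mixl1 and Msgn1 had a region from 48 h to 132 h, in 9 and 11 lists. The neural genes Sox1 and Pax6 had one from 48 h to 168 h, in 12 and 13 lists. T, Sox1 and Pax6 thus cannot check a stage label by H3K27ac. Alb, Ins2, Hbb-bs, Myh6 and Prm1, markers of liver, pancreas, red blood cells, heart muscle and sperm, had none in H3K27ac or PolII.

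Promoter windows below reach 1 kb to each side of a coding transcript start. The sequences around the start are shown for members whose values come up again, from 60 bases before the RefSeq start to 24 after it (RefSeq, GRCm38.p6). Capitals mark the motifs searched, namely CTTT beginning within 5 bases of the start on the sense strand (one form of a TOP start), CCGGAAG (ETS family) and GGGCGG (the GC box) on either strand, the latter written CCGCCC where it lies on the other strand. The RefSeq start lay between -127 and 45 bases from the nearest coding start of GENCODE in these genes.
Rps6 (chr4:86857343-86857427, minus strand): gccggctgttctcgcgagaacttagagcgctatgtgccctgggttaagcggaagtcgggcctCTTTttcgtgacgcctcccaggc
Rps27 (chr3:90213624-90213708, minus strand): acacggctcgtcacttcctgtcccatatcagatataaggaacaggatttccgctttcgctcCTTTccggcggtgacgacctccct
Rps27rt (chr9:114982715-114982799, minus strand): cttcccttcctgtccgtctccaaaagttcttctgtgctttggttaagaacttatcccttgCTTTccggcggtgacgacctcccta
Rpl18 (chr7:45718011-45718095, plus strand): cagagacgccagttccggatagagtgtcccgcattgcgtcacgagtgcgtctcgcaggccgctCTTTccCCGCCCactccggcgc
Rpl28 (chr7:4792905-4792989, plus strand): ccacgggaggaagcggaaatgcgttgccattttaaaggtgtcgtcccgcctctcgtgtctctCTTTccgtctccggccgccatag
Rplp2 (chr7:141447591-141447675, plus strand): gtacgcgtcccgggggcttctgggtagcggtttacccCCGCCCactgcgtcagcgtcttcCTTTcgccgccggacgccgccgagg
Rps3a1 (chr3:86142644-86142728, minus strand): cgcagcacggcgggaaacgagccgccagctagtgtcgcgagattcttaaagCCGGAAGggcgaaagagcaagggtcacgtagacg
Rpl22 (chr4:152325666-152325750, plus strand): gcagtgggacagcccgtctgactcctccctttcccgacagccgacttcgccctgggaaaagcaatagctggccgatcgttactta
Rpl10l (chr12:66284377-66284461, minus strand): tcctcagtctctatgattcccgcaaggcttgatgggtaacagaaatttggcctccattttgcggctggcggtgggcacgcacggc
Rpl39l (chr16:10170168-10170252, plus strand): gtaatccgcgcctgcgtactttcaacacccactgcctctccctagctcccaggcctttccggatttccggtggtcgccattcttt
Rpl3l (chr17:24727766-24727850, plus strand): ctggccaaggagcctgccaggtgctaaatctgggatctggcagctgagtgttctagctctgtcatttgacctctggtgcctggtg

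Rps6, Rps27, Rpl18, Rpl28 and Rplp2 carry CTTT at the start, and Rpl22, Rpl10l, Rpl39l and Rpl3l have no capitals. Rps27rt, a short gene of 374 bases on chromosome 9, shares with Rps27 an unbroken run of 24 bases (ctttccggcggtgacgacctccct), which begins at its own start and 1 base from the start of Rps27. The shared run ends at the last printed base of Rps27, so that 24 bases is its least length. Bases past the printed windows were not compared. Over the RefSeq table, 65 members were matched by 77 promoters of 250 bases before the start to 50 after it. CTTT at the start was found in 15 of 77 member promoters (19.5%), against 4.64% of promoters of coding genes and 5.17% of all 32851. CCGGAAG was found in 35.1% of member promoters, against 11.9% of promoters of coding genes and 8.86% of all. AAGATGGC, a core of the YY1 site, was found in 10.4%, or 8 promoters of 6 genes, against 3.1% of coding and 2.75% of all. Both strands were searched, and the 2 motifs can share the letters AAG. GGGCGG stood in 59.7%, against 47.7% of coding and 35.7% of all. In the same order, CACGTG (the E-box) stood in 10.4%, against 8.03% and 7.15%, and CGCATGCG (an NRF1 core) in 3.9%, against 2.61% and 1.87%. TATAAA on the sense strand stood in 7.79%, against 7.94% and 8.32%. The promoters of mitochondrial ribosomal proteins, which are encoded in the nucleus for the other ribosome of the cell, held CCGGAAG as often (34.7% of 75). They held CTTT at the start in 2.67% and AAGATGGC in 16%. These counts describe letters in a window. Among the members without a match by symbol were Rpl17, Rpl21, Rpl23a, Rpl29, Rpl3, Rpl30, Rpl32, Rpl36, Rpl7, Rpl8, Rplp1, Rps14, Rps20, Rps27a and Rps29.

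Nearly all members carried acetylation and polymerase at their promoters at every stage. An H3K27ac region lay in the promoter window of 81 of 85 members in all 13 wt lists, and in 44.2% of all genes. For PolII the count was again 81, in all 8 lists, against 45.1% of all genes. The 81 were the same for both marks and comprised the 77 members that are no paralog with Rpl7l1, Rpl22l1, Rpl36al and Rps27l. Of the other 4, Rps27rt and Rpl3l had no H3K27ac region at their promoter in any wt list, and Rpl10l and Rpl39l had one at 48 h alone, with summit pileups of 24 and 35 fragments. None of the 4 had a PolII, PolII Ser2-p, NIPBL or RAD21 region there. The start of another gene fell into the window of 43 members, and that of another coding gene into 18, and signal of such neighbours cannot be told apart from that of the member. Among the 18, with the coding neighbour in brackets, were Rps2 (Rnf151), Rps25 (Trappc4), Rps27 (Rab13), Rpl3 (Syngr1) and Rpl36al (Mgat2), whose heights are given below.

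**Figure D1:**
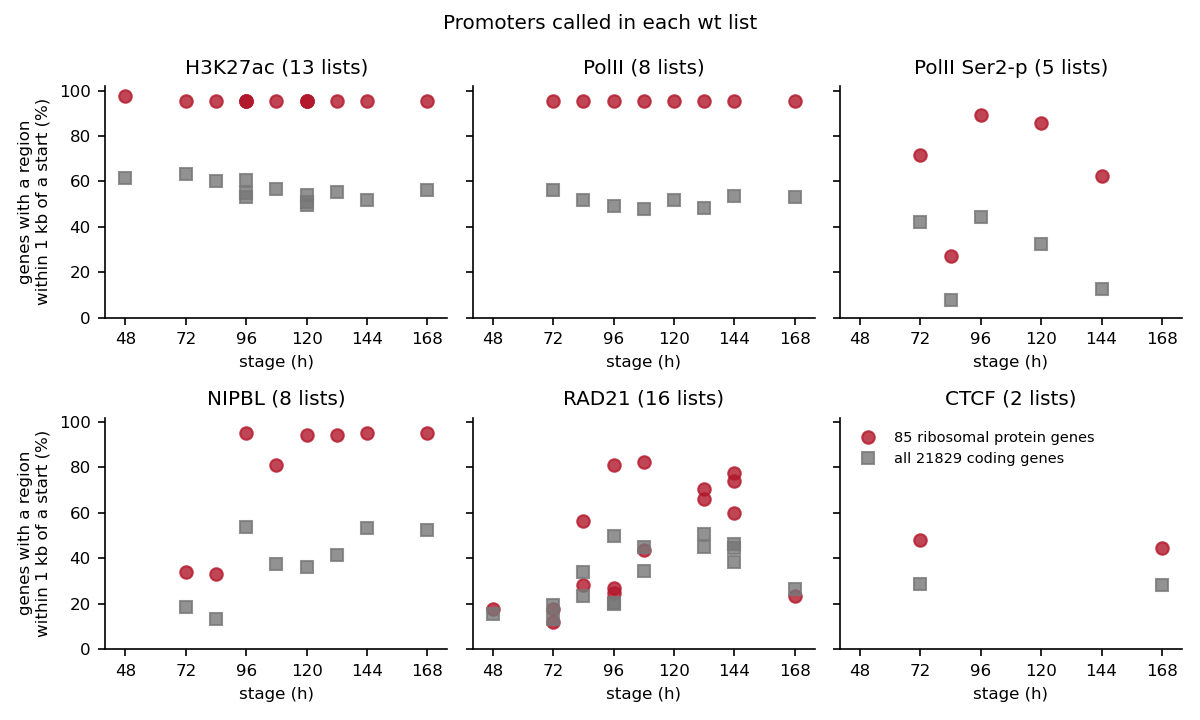
Percent of genes with a called region within 1 kb of a coding transcript start in each wt list (1 point per list), by stage in hours, for the 85 members (circles) and all 21829 coding genes (squares). H3K27ac and PolII sit at 95.3% or more of members in every list, while NIPBL, RAD21 and PolII Ser2-p vary from list to list along with all genes.

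The members stood high among the called promoters for both marks. The pileup, the number of fragments stacked at the highest summit of the window, was ranked among all promoters called in its list, so that 50 is the middle promoter. The median member sat at percentile 97.8 for H3K27ac at 48 h, between 94.1 and 96.5 in the 3 lists of 96 h, between 90 and 92.5 in the 3 lists of 120 h and at 90.7 at 168 h. For PolII it sat between 93.9 and 96.6 in the 8 lists. Mitochondrial ribosomal protein genes, all 78 of which were also called in every H3K27ac and PolII list, had median percentiles of 66.6 and 66.5. H3K27ac summits of members lay downstream of the start, at medians of 186 to 263 bases against 114 to 173 over all called promoters, and PolII summits at 5 to 16 bases against -9 to 12.

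The fold enrichment of the lists is another measure of height, which divides the pileup by a local background taken from the same library (no input control was used in the calling). Among the 9801 promoters called in all PolII lists, the median pileup of members was between 2.25 and 3 times the median of all, and their median local background between 2.08 and 3.66 times. The ratio of the median fold enrichments ran from 0.894 at 72 h to 1.31 at 132 h. For H3K27ac in the 9 lists of the time course, pileup ratios ran from 1.87 to 2.51, background ratios from 1.78 to 2.71 and fold enrichment ratios from 0.932 to 1.12. Statements on height below name which of the 2 quantities they use.

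**Figure D2:**
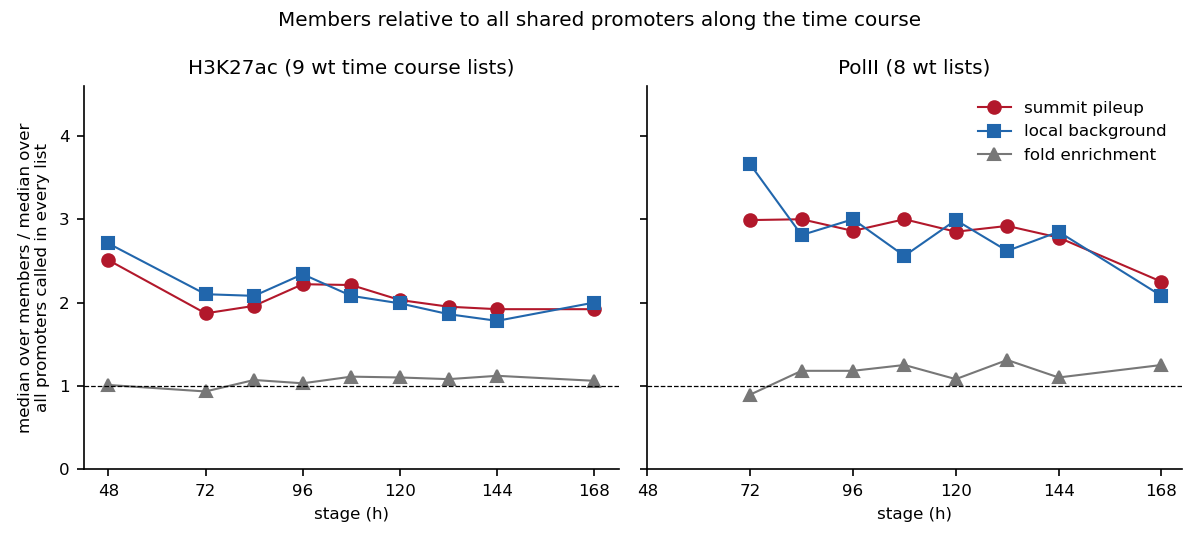
Median over members divided by the median over all promoters called in every list, by stage in hours, for summit pileup (circles), local background (squares) and fold enrichment (triangles), with 1 list per point and a dashed line at 1. Pileup and background of members lie 1.78 to 3.66 times above all shared promoters, and fold enrichment lies between 0.894 and 1.31.

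Among the proteins of the small subunit, Rps2, at the mRNA entry side of the ribosome, had the highest PolII pileups of the subunit. It reached 699, 379, 325, 285, 480, 339, 693 and 453 fragments in the lists of 72, 84, 96, 108, 120, 132, 144 and 168 h, and stood at a median percentile of 99.6. Rps6, the target of the S6 kinases, had 324, 145, 118, 139, 170, 130, 262 and 220 fragments of PolII in the same order of stages, close to the median member. Rpsa, which also serves as a laminin receptor, had 313, 126, 108, 121, 170, 96, 236 and 187. Rps25, dispensable for most translation but used by some viral and stress-related mRNAs, was among the 3 lowest members for PolII. Its pileup was 228 at 72 h and 91 at 84 h, then 45, 51, 86, 53, 113 and 80, and its percentile went from 94.1 at 72 h to 55.7 at 168 h. Over the subunit, percentiles had medians of 93.7 for H3K27ac and 96.3 for PolII, and 28 of 31 genes were at or above 90 for PolII.

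Among the proteins of the large subunit, Rpl3, which sits near the peptidyl transferase centre, had the highest PolII pileups of the family, with 789, 453, 291, 360, 504, 405, 833 and 497 fragments from 72 h to 168 h and a median percentile of 99.7. Rpl41, a peptide of very few residues, followed Rps2 with 592, 295, 191, 223, 337, 246, 605 and 336. Rpl22, whose product binds RNA outside the ribosome too, was lowest, with 122, 56, 47, 37, 86, 38, 101 and 80 and a median percentile of 64.1. Its percentile for NIPBL was second highest of all members (97.8), and for H3K27ac it ran from 80.1 to 97.7. Rpl29 stood near the bottom for PolII (78.2) and for NIPBL (32.6). Rpl19 stood at a median percentile of 99.4 for H3K27ac, with 96.6 in its lowest list. X-linked Rpl36a was lowest of the subunit for H3K27ac, with 37 fragments in the lowest list, 59 in the middle, 82 in the highest and a median percentile of 51.1, but had PolII percentiles of 92.4 to 96.6. Over the 43 genes, the medians were 95.3 for H3K27ac and 94.5 for PolII. Members with a small nucleolar RNA gene inside had medians of 95.7 and 96.3, and those without 93.8 and 94.5.

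The 3 stalk proteins recruit elongation factors to the ribosome. For PolII, Rplp0 (428, 267, 216, 201, 331, 233, 543 and 367 fragments) and Rplp1 (470, 206, 185, 173, 268, 149, 397 and 239) stood at percentiles of 97.1 or more in each list, and Rplp2 between 83.2 and 94.3. Their H3K27ac percentiles had a median of 82.1, and Rplp1 was lowest with 64. Rplp1 stood at percentiles of 43.6 to 82.9 for H3K27ac, below its place for PolII.

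The paralogs split by whether PolII was called at the promoter, which it was for 4 and in no list for the other 4. Rps27l, a p53 target whose product resembles that of Rps27, had 280, 126, 95, 104, 183, 124, 266 and 216 fragments of PolII, and Rps27 had 444, 246, 174, 171, 313, 223, 439 and 265, more in every list. Rpl36al, on chromosome 12, had 288, 186, 127, 147, 188, 124, 253 and 246 against 267, 155, 108, 122, 177, 92, 285 and 187 for X-linked Rpl36a, more in 7 of 8 lists. Rpl22l1 exceeded Rpl22 in all 8, with 281 against 122 fragments at 72 h and 153 against 80 at 168 h, and Rpl7l1 exceeded Rpl7 in all 8 too, with 272 against 238 at 72 h and 218 against 135 at 168 h. The windows of Rpl36al and Rps27 also hold the starts of Mgat2 and Rab13, whose signal cannot be told apart from theirs. Rpl10l beside X-linked Rpl10, Rpl39l beside X-linked Rpl39, Rpl3l beside Rpl3 and Rps27rt beside Rps27 had no PolII region at their starts in any list, which is a statement on calls and not on transcription. PolII covered 26.4 to 38.5% of the 2 kb past the end of Rpl3l in the 8 lists. The H3K27ac region that covered a median of 2.93% of the span of Rpl3l in all 13 lists lay outside its promoter windows. Rpl3l begins downstream of Rps2 on the same strand of chromosome 17.

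**Figure D3:**
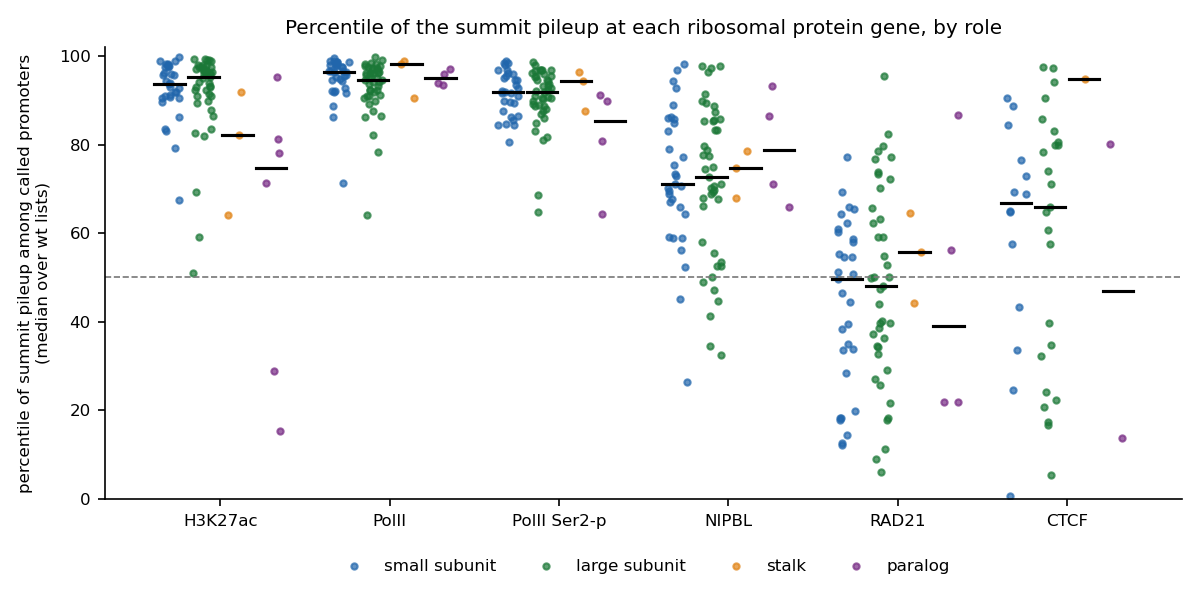
Percentile of the summit pileup among all promoters called in a list, as the median over the wt lists in which the member had a summit, for each member (points) by role and assay, with bars at the median of the role and a dashed line at 50. H3K27ac, PolII and PolII Ser2-p members gather near the top, with role medians of 74.7 to 98.2, NIPBL lies lower, and RAD21 and CTCF spread over the whole scale.

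Elongating polymerase was called past the ends of the genes more often than at their starts. At the promoter, 21 members had a PolII Ser2-p region in all 5 lists (6.3% of all genes), and 61, 23, 76, 73 and 53 members had one in the lists of 72, 84, 96, 120 and 144 h, where the shares of all genes were 41.9, 7.91, 44.3, 32.2 and 12.4%. The list of 84 h was the shortest, and without it, a choice made after seeing the data, 48 members were called in every list against 11.8% of all genes. Where a promoter was called, the members' median local background was 4.84 to 55.6 fragments by list, against 3.67 to 8.15 over all called promoters. Their median fold enrichment was lower in each list, at 3.14 to 4.03 against 3.29 to 5.71. Calling divides by this background, and its effect on missing promoter calls was not tested. In the 2 kb past the annotated end, a region was called in all 5 lists for 65 members (76.5%), against 6.31% of all genes. By list the count was 78, 66, 77, 76 and 70 members, while the share of all genes ran from 9.08% to 29.9%. The same measure gave 11 of 78 mitochondrial ribosomal protein genes (14.1%) and 12.8% of the 9846 genes with PolII at the promoter in every list. At 84 h, 48 members had a region past the end and none at the promoter, as did 6.84% of all genes (1493 of 21829). Of the members with no other coding start in the flank or within 1 kb of it, 49 of 67 (73.1%) were called in every list against 4.48% of all such genes. When 1 kb past the end was taken, an alternative chosen after seeing the data, the count was 40 members against 3.63% of all genes. It was 66 without the list of 144 h, for which the reads of 3 samples had been joined.

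Rpl3 had 72.7, 64.4, 70.5, 70 and 59.7% of its 2 kb past the end covered by PolII Ser2-p in the 5 lists. Rpsa had 98.4, 84, 96.4, 86.4 and 66.4%. Rpl32 had more than 95% in each list (95.8 to 97.3%) and no PolII Ser2-p region at its promoter in any of them, and Rps25 had 45.8 to 100% and likewise none at the promoter. The flank was not called in any list for 7 members, among them Rpl10l, Rpl39l, Rps27rt, Rpl11, Rplp1 and Rps28. Rpl10l, Rpl39l and Rps27rt are without PolII as given above, and Rpl11, Rplp1 and Rps28 had PolII Ser2-p within the gene span in all 5 lists, with medians of 8% of the span for Rpl11, 18.7% for Rplp1 and 46% for Rps28. The annotated spans of Rpl11 (25164 bases) and Rps28 (5536 bases) are long for the family, and the effect of such transcript models on the flank was not tested. At the promoter, PolII Ser2-p pileups of Rps12 were 418, none, 520, 288 and 106 fragments in the 5 lists, and those of Rpl3 were 413, 53, 484, 312 and 117.

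**Figure D4:**
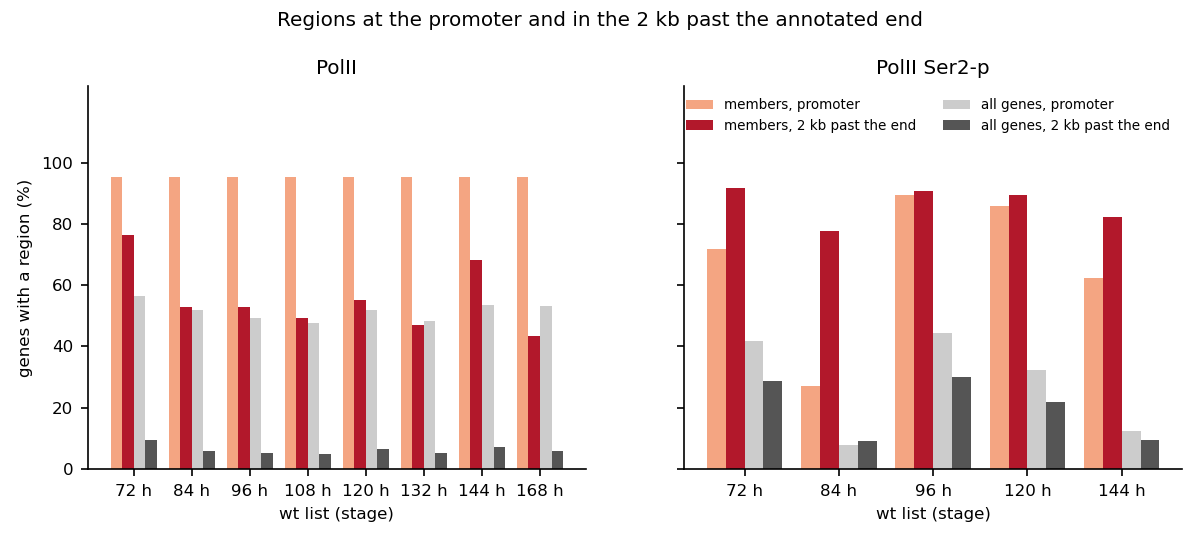
Percent of genes with a PolII region (left, 8 wt lists) or PolII Ser2-p region (right, 5 wt lists) in the promoter window and in the 2 kb past the annotated end, for the 85 members and for all 21829 coding genes. For PolII Ser2-p the bars past the end stand at 66 to 78 of 85 members, above the promoter bars in each list, and for PolII at 37 to 65, below them.

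Total polymerase was also called past the end, for 37 to 65 members by list against 4.88% to 9.62% of all genes. Regions covered more of a member's gene span than of other genes, which are longer. The middle member had 14.7 to 21.3% of its span covered by PolII and 28.7 to 41.4% by H3K27ac, against at most 0.622% and 2.14% over all genes. Almost all of this lay near the start. In the 71 members with at least 500 bases beyond 1 kb of a start, the median of covered bases there was 0 for PolII and PolII Ser2-p. PolII covered 21.1 to 26.3% of the exon bases of members and 8.89 to 16% of their intron bases. The authors had kept reads above a mapping quality, and the part of pseudogene copies in these shares was not tested.

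Cohesin and its loader were called at the members in a way that followed the list. A NIPBL region lay at the promoter of 14 members in all 8 lists (8.17% of all genes). By stage the count was 29, 28, 81, 69, 80, 80, 81 and 81 members from 72 h to 168 h, and the share of all genes was 18.6, 13.1, 53.6, 37.5, 36.3, 41.3, 53.5 and 52.5%. Without the lists of 72 h and 84 h, 69 members were called in every list against 28.1% of all genes, and without that of 84 h alone 28 against 14.1%. The number of regions in a list and the stage change together here, and the 2 cannot be told apart. Among the 14 were Rps6, Rps7, Rps13, Rps26, Rps3a1, Rpl3, Rpl5, Rpl14, Rpl22, Rpl32, Rplp1, Rpl36al and Rps27l. Pileups of NIPBL at Rps29, which was highest by percentile (98.2), were 22, 82, 72, 65, 56, 105 and 93 from 84 h to 168 h with none at 72 h. At Rpl22 they were 16, 20, 78, 77, 39, 49, 130 and 145, and at Rps4x, the lowest, at most 33. The median member stood at percentile 42.3 to 81.5, below its place for PolII.

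RAD21 was called at 10 to 70 members by list, and at 4 members in all 16 lists (7.84% of all genes). Among these were Rpl11, which binds MDM2 when ribosome assembly fails, Rps26 and the paralog Rpl7l1. At Rpl7l1 the pileup was 24 in the lowest list, 57 in the middle and 113 in the highest, and at Rpl11 it was 23, 39 and 97. Rpl28 and Rpl8 were the members with PolII at the promoter that had none in any list. The lists of 1 stage differed widely. At 96 h, 69, 23 and 21 members were called, with 49.8, 20.4 and 19.9% of all genes, and at 108 h 70 and 37 members, with 44.8 and 34.2%. Libraries whose labels use the tag cell line gave 10 to 63 members over 7 lists, with 13.1 to 50.5% of all genes, and those with the tag cell type 15 to 70 over 9, with 19.4 to 49.8%.

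A CTCF region lay at the promoter of 37 members in both wt lists (24% of all genes), and 43 members had none in either. Of the 37 members with CTCF, the median one had RAD21 in 12 of 16 lists, and of the 43 without it, in 4. The same medians over all genes were 14 and 0. At 48 h, 14 of the 15 members called for RAD21 were among the 37 with CTCF, and at 96 h in replicate 1, 37 of 37 and 27 of 43 were called. In the 5 lists of lines with deleted HoxD sites, 33 to 41 members had CTCF (15.4 to 26.9% of all genes), against 41 and 38 in the wt lists (28.8 and 28.2% of all genes). High percentiles were those of Rpl5 (97.4), Rpl36 (97.3), Rplp0 (94.7) and Rps29 (90.5). Rpl5, a partner of Rpl11 in binding MDM2, had pileups of 101 at 72 h and 209 at 168 h, Rpl36 had 94 and 215, and Rplp0 87 and 188. A CTCF matrix was learnt on other sites and searched within 60 bases of each summit. It matched 61.5% of the 39 called members outside the paralogs at 72 h and 70.3% of 37 at 168 h, and 61.4% and 65.6% of the promoter summits of other coding genes. Summits of those other genes could be among the sites the matrix was learnt on, while summits in member windows could not. Members with a match had median CTCF pileups of 61 and 115, and those without 29.5 and 40.

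**Figure D5:**
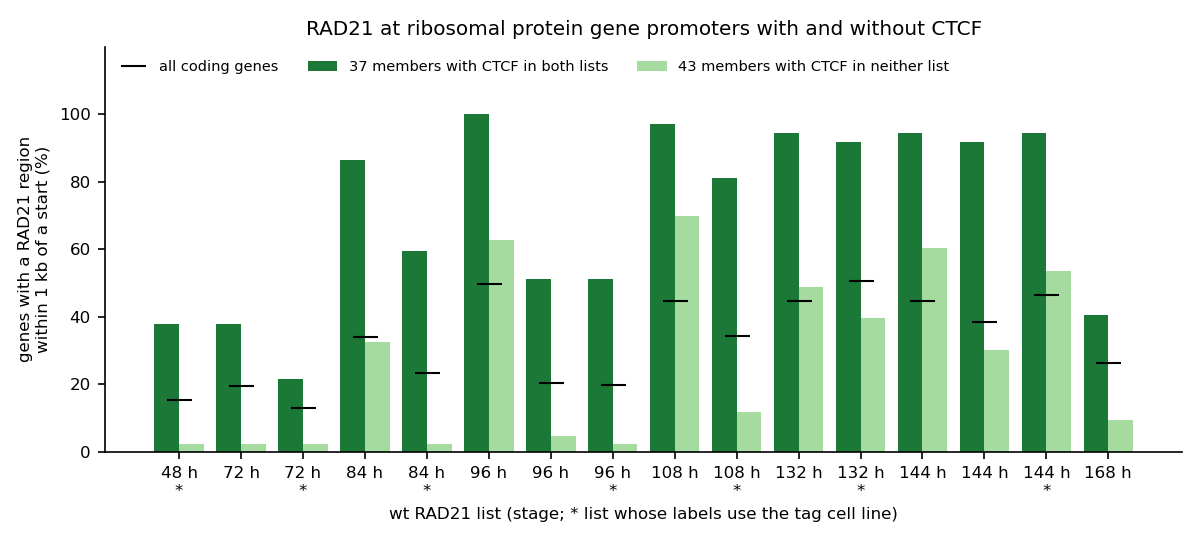
Percent of members with a RAD21 region within 1 kb of a start in each of 16 wt lists, ordered by stage, for the 37 members with CTCF in both wt lists (dark bars) and the 43 with CTCF in neither (light bars), with all coding genes as dashes. In every list the dark bars stand above the light ones, and both change from list to list together with all genes.

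Change between stages was tested between groups with replicates, and as a linear trend over the lists of a time course. Both used limma on log2 summit pileup centred on the promoters called in every library. Benjamini-Hochberg adjustment ran over all promoters tested. The H3K27ac groups were compared in 1 fit of the wt, Del(CBS1) and Del(CBS1-2) libraries whose labels carry a replicate number. They share 1 estimate of the spread, so the mutant libraries enter the spread of the wt comparison. The wt libraries of 96 h and 120 h without such a number were left out of it. The RAD21 groups of wt 96 h, wt 144 h and Del(CBS1) also shared 1 fit. Between wt 96 h and wt 120 h (2 libraries each), 1 of 81 members had lower H3K27ac and none had higher H3K27ac at 120 h, against 3.84% lower and 3.75% higher of 9890 promoters. An unadjusted p under 0.05 was reached by 15 members (18.5%) and by 22.5% of all. Without wt 96 h replicate 1, wt 96 h replicate 2 or wt 120 h replicate 1 no member passed, and without wt 120 h replicate 2 the 1 member that passed was Rplp1 (-0.69, adjusted p = 0.0369, with 2.18% of all promoters lower), which did not pass with all libraries. With library weights and a variance trend, an alternative chosen after seeing the data, 3 members were lower, Rpl5 (-0.43) and Rps12 (-0.43) among them, against 3.15% of all promoters. The median difference over members was -0.14, against 0.00 over all, when pileups were used and 0.09 when fold enrichment was used, so that the direction of the family turned with the quantity. The members' median local background was 21.6 and 18.7 at 96 h and 12.8 and 11.3 at 120 h, and that of all shared promoters 9.43 and 8.06, and 6.37 and 5.63.

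Over the 9 lists of the H3K27ac time course, a linear trend in log2 pileup was lower with stage for 4 of 81 members and higher for none, against 7.45% lower and 7.5% higher of 10259 promoters. Among the 4 were Rplp1 (-0.18 per day, SE 0.04, adjusted p = 0.0146), Rpl23a (-0.16, adjusted p = 0.0349) and the paralog Rpl36al (-0.14, adjusted p = 0.0301). Rplp1 had 105, 88, 89, 110, 82, 52, 55, 43 and 70 fragments from 48 h to 168 h, where the median promoter had 68, 85, 71, 97, 75, 60, 65, 48 and 91. Its values were above that median up to 108 h and under it from 120 h on. Without the list of 48 h no member passed, without that of 132 h or 144 h 1, and without that of 84 h, 96 h, 120 h or 168 h 2. Shares of all promoters in these fits are not given here. The median over members was -0.05 per day by pileup, against 0.00 over all promoters, and 0.04 by fold enrichment. No member passed with fold enrichment.

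For PolII, 2 of 81 members had a lower trend and none a higher one over the 8 lists, against 3.82% lower and 3.76% higher of 9801 promoters. Rps25, whose pileups stand above, fell by 0.26 per day on the log2 scale (SE 0.06, adjusted p = 0.0292). Rpl37a, a zinc-finger protein of the large subunit, had 326, 156, 120, 108, 167, 100, 204 and 168 fragments and fell by 0.20 per day (SE 0.05, adjusted p = 0.0302). At 72 h, where the median shared promoter had 95 fragments, both were far above it, and at 168 h, with a median of 83, Rps25 was under it. Neither passed without the list of 72 h, 84 h, 144 h or 168 h, and without that of 96 h Rpl35 passed as well (-0.21), with 3.39% of all promoters lower. In all, 77 of 81 members had a trend below 0 by pileup, with a median of -0.09 per day against 0.00 over all promoters. By fold enrichment, however, 69 members were above 0, with a median of 0.05. The shares of all promoters below or above 0 are not given here, nor is their median by fold enrichment.

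NIPBL could be tested in 14 members and RAD21 in 4, those called in every list. No NIPBL member passed in limma, against 3.76% lower and 3.82% higher of 1755 promoters. An unadjusted p under 0.05 was reached by 3 members (21.4%) and by 24.8% of all. The first was Rps26 (0.30 per day, SE 0.09, adjusted p = 0.0598), with 14, 14, 75, 46, 54, 47, 120 and 117 fragments. Without the list of 96 h, Rps26, Rpl22 and Rpl3 passed, all upwards, with 12.9% of all promoters higher, and without that of 108 h Rpl22, with 4.62%. With library weights the same 3 genes passed, with 15.6% of all promoters higher. No RAD21 member passed over stages, against 13.4% lower and 7.62% higher of 1496 promoters. None had an unadjusted p under 0.05, which 34.8% of all promoters had, and none passed with library weights. Within the lists of the tag cell line, Rpl38 was lower (-0.24 per day, adjusted p = 0.0291), with 12.4% of all promoters. Between 96 h and 144 h (3 libraries each), none of 15 members passed for RAD21 in limma, against 0.72% lower and 0.0343% higher of 2916 promoters. An unadjusted p under 0.05 was reached by 2 members (13.3%) and by 14.8% of all. With the replicate number as a block, which pairs these libraries, Rpl37 was higher at 144 h (0.78, SE 0.23, adjusted p = 0.0475), as were 2.43% of all promoters. It also passed with library weights (0.91, with 6.41% of all promoters higher) and without wt 96 h replicate 1 (1.03, with 5.31%). Its pileups were 24, 14 and 11 at 96 h and 39, 32 and 35 at 144 h, with no overlap.

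In the mutant lines no member passed the test as designed. The Del(CBS1-2) libraries of H3K27ac carry the label tag cell line and their wt controls the tag cell type, so that genotype and tag cannot be told apart there, while Del(CBS1) and its controls share the tag cell type. For RAD21 both Del(CBS1) libraries and wt 96 h replicate 3 carry the tag cell line, and wt replicates 1 and 2 the tag cell type. For H3K27ac in Del(CBS1), 0 of 81 members differed from wt in limma at 96 h, against 0.0101% lower and 0% higher of all promoters. An unadjusted p under 0.05 was reached by 4 members (4.94%) and by 10.1% of all promoters. At 120 h it was again 0, against 0.0809% lower and 0.0101% higher. There 2 members (2.47%) had an unadjusted p under 0.05, as did 13.2% of all. With library weights it was 0 at both stages. In Del(CBS1-2) it was 0 at 96 h, against 1.88% lower and 0.586% higher, with 3 unadjusted (3.7%, and 19.8% of all). At 120 h it was 0, against 0.445% lower and 0.0809% higher, with 12 unadjusted (14.8%, and 17.5% of all). With library weights Rps19 was higher (0.42) and Rpl41 (-0.37) and Rpl7l1 (-0.49) lower at 96 h, against 2.43% higher and 3.35% lower of all promoters, and Rpl14 was higher at 120 h (0.53, adjusted p = 0.0336), against 0.961% of all. The nearest was Rpl14 in Del(CBS1-2) at 120 h (0.53, SE 0.13, adjusted p = 0.0835). It had 170 and 158 fragments in the mutant and 66 and 56 in wt, where the medians of shared promoters were 86 and 87 against 50 and 43. The median over members in that comparison was 0.15 by pileup, against 0.01 over all promoters, and -0.05 by fold enrichment. By the interaction term of the same fit, the change from 96 h to 120 h did not differ from that in wt for any member. Of all promoters, 0% were lower and 0% higher in Del(CBS1) and in Del(CBS1-2). Unadjusted, 1 member (1.23%) and 7.39% of all promoters were under 0.05 in Del(CBS1), and 2 (2.47%) and 8.16% in Del(CBS1-2). No member passed with library weights either. Members' own differences ran from -0.49 to 0.53 over the 4 comparisons with wt. For RAD21 in Del(CBS1) at 96 h, 0 of 15 members passed in limma (0% lower and 0% higher of 2916). Unadjusted, 2 members (13.3%) and 3.33% of all promoters were under 0.05, and 0 members passed with library weights. Rps29 had 16 and 20 fragments there and 36, 20 and 16 in wt, with overlap (-1.10, SE 0.28, adjusted p = 0.945).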

How the data were processed

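The series comprised 82 samples, for which 80 peak lists were deposited. Of these, 76 were used, 61 of them wt, and 4 lists of edited lines were not used here. The authors trimmed reads with cutadapt (1.16), mapped them to mm10 with Bowtie2 (2.3.4.1), kept proper pairs above a mapping quality with SAMtools (1.8) and called peaks per library with MACS2 (2.1.1.20160309) without an input control. For PolII Ser2-p at 144 h the reads of 3 samples were joined. Per the file format, the deposited values are a fold enrichment (ratio) over local background, the −log10 p-value and q-value of the summit, and a score, 10 times the −log10 q-value. The depth is not in the lists.

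From these, the summit pileup and local background were solved from the fold enrichment and −log10 p-value, which succeeded for at least 98.9% of peaks in each list (tolerance 0.001). A promoter was called where a region overlapped the window of 1 kb (1000 bases) to each side of a coding transcript start. Log2 pileups were centred on the median of promoters called in every library and compared with limma (3.58.1, R 4.3.3), with Benjamini-Hochberg adjustment at 0.05. In data simulated for H3K27ac wt 120 h against 96 h (9890 promoters), 70% of 100 changes of 1 on the log2 scale and 100% of changes of 2 were recovered, with 11.9% false calls, and 7.14% with library weights, which were therefore added. RAD21 libraries of 1 number deviated together (r of 0.109 to 0.574 over 7 pairs). The RAD21 tests as designed did not pair libraries. A fit with the replicate number as a block was run as an alternative.

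The members, lists and tests were chosen with earlier results of these data known. Genes named are a chosen panel, the paralogs with their parents, the 3 highest and 3 lowest members per assay, members without a called promoter, up to 5 called members per comparison and direction, and up to 5 CTCF members. Some genes that these choices name are not reported here. Alternatives were the window, the q-value limit, lists of equal length, normalization, fold enrichment, a pileup minimum of 20 and leaving out each library.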

Additional observations from a re-analysis of the deposited data

Results flagged for a closer look

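Regions of marks outside the comparisons of the report were looked up at the same promoters, and those with any member called are given here. H3K27me3, the mark of Polycomb repression, was called at 37 members at 72 h, at 9, 24 and 39 in replicates 1, 2 and 3 of 96 h, at 43 at 120 h and at 21 at 144 h, against 15.3% to 22.2% of all genes. At these members the median summit pileup was 18 to 30 fragments, against 28 to 42 over all called promoters, but the median fold enrichment was 5.47 to 9.94 against 3.71 to 4.25, over a local background of 1.61 to 2.99 against 5.54 to 8.76 fragments, so that the order turned with the quantity. The summits lay at medians of 101 to 126 bases past the start, against 353 to 410. Rpl13, Rpl15, Rpl18, Rpl23, Rpl3 and Rps3 were called in all 6 lists and 42 members in none. CDX2, a transcription factor of the posterior embryo, was called at 4 members (4.71%) at 96 h, against 2.08% of all genes. No control library for these marks was used here, and no group of 4 or more libraries was there for a test of outlying samples.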

How the results depend on the processing

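The count of members with H3K27ac or PolII at the promoter in every wt list stayed within 1.5 times of 81 under each alternative run, and the counts of RAD21 and CTCF did too. PolII Ser2-p promoters in every list numbered 32 within 2.5 kb, 11 at a −log10 q of at least 5 and 48 without the list of fewest regions (11.8% of all genes). For NIPBL the count was 0 at that q-value and 3 with lists of equal length. It was 28 without the list of fewest regions (14.1% of all genes) and 69 without the lists of 72 h and 84 h (28.1%). Shares of all genes under the other alternatives are not given here. Without the bases within 1 kb of a start the median share of the gene span covered was 0 for PolII, PolII Ser2-p and NIPBL and 0.968% for H3K27ac, and for NIPBL it was also 0 with lists of equal length. With 1 kb past the end, 40 members had PolII Ser2-p in every list.

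With fold enrichment in place of pileup no member was called lower between wt 96 h and 120 h, or in the H3K27ac or PolII trend (0 in each). The median over members then turned to 0.09 between wt 96 h and 120 h, to -0.07 for Del(CBS1) and -0.05 for Del(CBS1-2) at 120 h, and to 0.04 and 0.05 per day in the H3K27ac and PolII trends. Rpl23a turned to 0.01 and Rpl37a to 0.04 per day. With library weights, chosen after seeing the simulated data, 3 members were lower in wt at 120 h, 2 lower and 1 higher in Del(CBS1-2) at 96 h, 1 higher there at 120 h, 1 higher for RAD21 at 144 h and 3 higher in the NIPBL trend. Leaving out 1 library gave 0 to 1 members lower in wt at 120 h, 0 to 4 lower in the H3K27ac trend, 0 to 3 lower in the PolII trend, 0 to 3 higher in the NIPBL trend and 0 to 1 higher for RAD21 at 144 h. Within the tag cell line 1 member was lower in the RAD21 trend. The cause of these differences was not tested.

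With the replicate number as a block, 1 member was higher for RAD21 at 144 h, and the block changed no other call of members. H3K27ac libraries of 1 number shared only that number (r of -0.055 to 0.106 over 30 pairs). Each H3K27ac group had 2 libraries, whose deviations mirror each other, so each r comes up for both numbers. For H3K27ac, 1 member was lower between wt 96 h and 120 h with the block as without it. Read depth and an input control were not given in the lists, and 1 list per stage gives no spread within a stage.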

Other observations

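Genes with related functions were described over the same wt lists, from lists drawn up with earlier results of these data known. Fau and Rack1, ribosomal proteins whose symbols fall outside the naming rule, had H3K27ac and PolII at the promoter in every list, with median PolII percentiles of 87.1 and 97.7. Neither had CTCF. Of 19 translation factors and other genes with TOP mRNAs, 18 had H3K27ac and 19 PolII in every list, at median percentiles of 90.9 and 83.1. Of 30 ribosome biogenesis genes, 29 had each mark in every list, at median percentiles of 78.4 and 75, and 11 had CTCF in both wt lists. Taf1b, a factor of RNA polymerase I, had no PolII Ser2-p, NIPBL or RAD21 region at its promoter in any list.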
